A study of Mus musculus with 4 samples.

Results

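The genes that encode Wnt ligands, the proteins that load and secrete them, their receptors, their secreted antagonists and the R-spondins were read in bulk RNA-seq libraries of mouse explants treated with an uncoupler of mitochondria. The genes were chosen by symbol alone, with no measured value: every row named Wnt, Fzd or Rspo with its number, Lrp5, Lrp6, Sfrp1 to Sfrp5, Frzb, Dkk1 to Dkk4, Wif1, Ror1, Ror2, Ryk, Porcn and Wls. The rule matched 50 of 49997 genes. The tissue was the aorta-gonad-mesonephros region (AGM), the part of the embryo where the first haematopoietic stem cells arise, taken from C57BL/6J mice. Explants were held at the border of medium and air for 48 h, and 2 libraries were left untreated while 2 had 5 µM CCCP, which carries protons across membranes and so dissipates the mitochondrial membrane potential; all were in the same haematopoietic medium with hydrocortisone. The labels give the embryonic stages E10.5 and E11.5 in one place and E10.5 alone in another, and name stem cells as the cell type while the RNA is described as coming from whole explants. Nothing in the labels says that the libraries of a group came from separate cultures or animals, so p-values measure the spread between these libraries, which may be technical.

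Wnt proteins are secreted, lipid-modified signals. Porcn attaches the lipid and Wls carries the ligand to the cell surface. A ligand that joins a Frizzled receptor to Lrp5 or Lrp6 stabilises beta-catenin (canonical signalling), whereas signalling through Frizzled with Ror1, Ror2 or Ryk acts on cell polarity and movement without beta-catenin (non-canonical signalling). Secreted Frizzled-related proteins, Frzb and Wif1 bind the ligand itself. Dickkopf proteins such as Dkk1 block Lrp5 and Lrp6, and R-spondins keep Frizzled receptors on the cell surface. In the embryonic trunk, Wnt signals pattern the dorsal neural tube, the surface ectoderm, the mesonephros and the gonad, and they act on the aortic endothelium from which blood stem cells emerge. The division into canonical and non-canonical ligands used below is the textbook one, and single ligands can act in both ways.

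Each library held 37360968 to 48827826 counted reads, replicate 1 being the deeper library of each group, and a floor of 3 counts corresponded to 0.0599 to 0.0826 CPM. CPM are counts scaled by library size, here with TMM factors between 0.966 and 1.04, and levels of different genes are compared only as CPM per kilobase of exon. Gene coordinates are those of the deposited files, on mm10. The libraries were those of a mixed tissue. Among blood markers, Kit had 51.2 and 63.2 CPM in untreated replicates 1 and 2. In CCCP replicates 1 and 2 Kit had 47.6 and 51.7 CPM. In that order of libraries, Ptprc had 6.85, 6.81, 3.64 and 3.39 CPM. Hba-a1 had 314, 267, 384 and 430 CPM, and Spi1 had 4.63, 3.85, 5.7 and 5.65 CPM. The groups overlapped in 7 of the 10 blood markers. Both CCCP libraries were above both untreated ones in 2 (Hba-a1 and Spi1), against 24.0% of all genes. They were below in 1 (Ptprc), against 24.8% of all genes. Mesenchyme markers summed to 3310 to 5730 CPM in the 4 libraries. Hepatic markers summed to 1770 and 1010 CPM in untreated libraries and to 53.5 and 110 CPM with CCCP. In 11 of 11 genes both CCCP libraries were below both untreated ones, against 24.8% of all genes. Ahsg had 0 counts in CCCP replicate 1. The part of such tissues in the values below was not tested. In bulk RNA, fewer cells of a type and less RNA per cell cannot be told apart.

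Wnt pathway genes were present in nearly full complement, and no single member differed between the groups past the threshold. Of the 50 genes, 46 had a mean of at least 1 CPM, and 49 passed the filter on low counts; Dkk4, a Dickkopf antagonist with 11, 6, 4 and 0 counts, did not. In edgeR (quasi-likelihood test, Benjamini-Hochberg adjustment over all genes), 0 of the 49 had an adjusted p-value under 0.05, as did 0 of all 19837 genes tested (0%). The adjusted p-values of the members ran from 0.166 to 0.994. At an unadjusted p under 0.05 there were 4 members higher in CCCP (Wnt6, Wnt10a, Wnt4 and Fzd2; 5.45% of all genes) and 2 lower (Fzd3 and Lrp6; 9.16% of all genes). DESeq2 on the same genes called Wnt6 higher (0.297% of all genes were called higher) and Fzd3 lower (2.70% called lower). The log2 fold change, CCCP over untreated, was above 0 in 34 of 49 members (69.4%, against 49.2% of all genes), with a median of 0.12 against -0.01 for all genes and a range from -0.67 to 1.06. The CCCP libraries were both above the untreated ones in 15 members (30.6%), where 24.0% of all genes did so, and below them in 4 (8.16%), where 24.8% of all genes did so. The other 30 overlapped. With 2 libraries per group an exact two-sided permutation test of 1 gene cannot give a p below 0.333, so none was run.

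**Figure D1:**
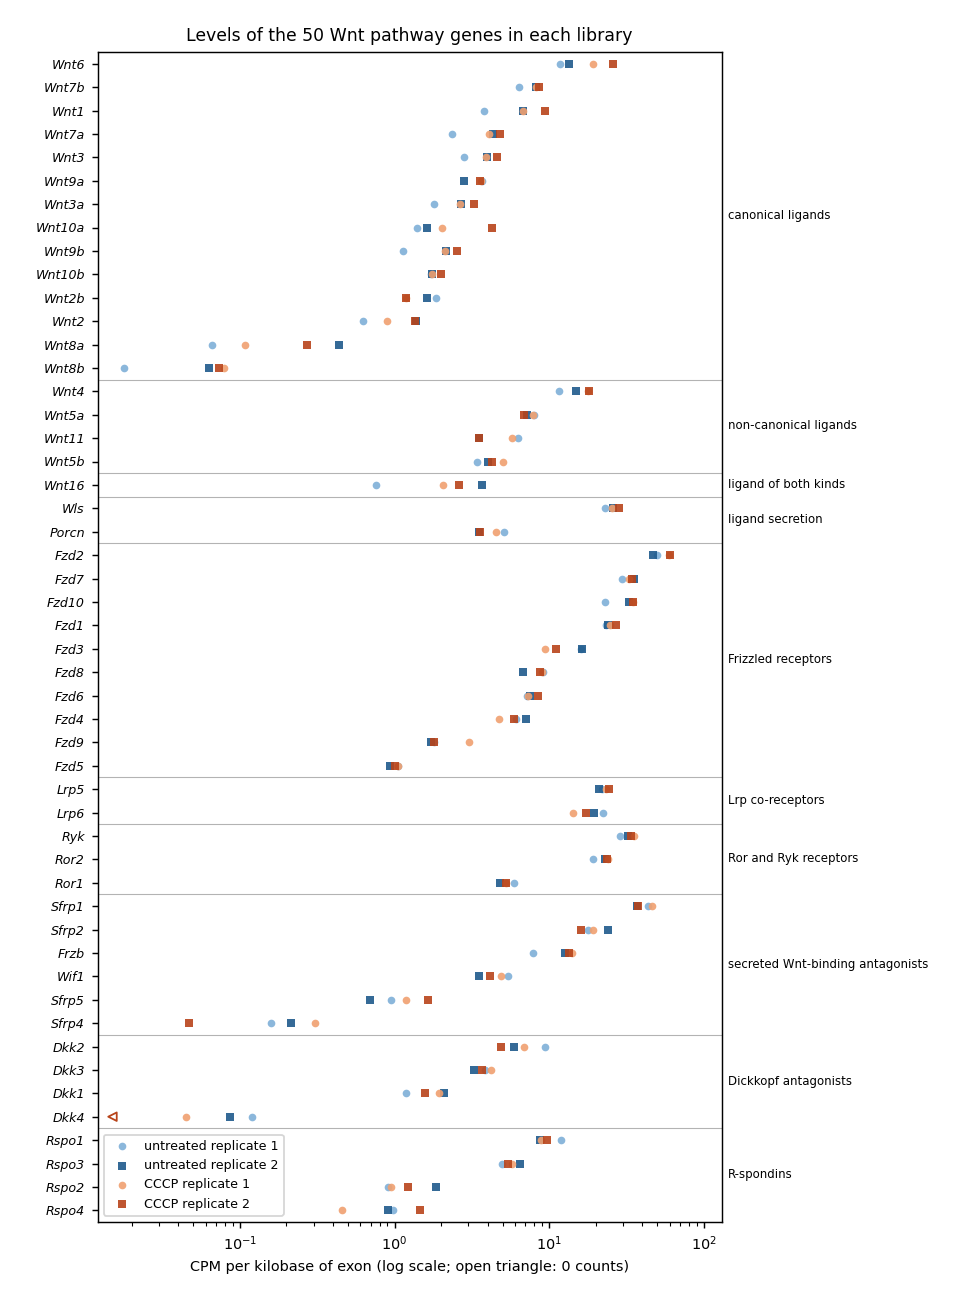
Level of each of the 50 genes in the 4 libraries, in CPM per kilobase of exon on a log axis, with circles for replicate 1 and squares for replicate 2 and blue for untreated and orange-red for CCCP; genes are grouped by role and ordered by their mean. Fzd2 and Sfrp1 sit at the right end, and the 4 points of a gene mostly lie closer together than the genes of a role do.

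Per kilobase of exon, receptors and a single antagonist led the family. Fzd2 was highest with a mean of 54.1 CPM per kilobase, followed by Sfrp1 with 41.1, Fzd7 with 33.0, the receptor kinase-like protein Ryk with 32.6, Fzd10 with 31.2 and the ligand carrier Wls with 25.7. The ligands with the highest levels were Wnt6 with 17.5 and Wnt4 with 15.5 CPM per kilobase, ahead of Wnt7b with 7.82, Wnt5a with 7.46 and Wnt1 with 6.66. At the other end were Wnt8a with 0.221, Sfrp4 with 0.181, Dkk4 with 0.0626 and Wnt8b with 0.0584 CPM per kilobase. In this order, 46 of the 49 pairs of neighbours had ranges over the 4 libraries that overlapped, so most neighbouring ranks do not differ beyond the spread. Fzd6 is annotated on the main chromosome and again on a fix contig, and its exon length on the main chromosome, 4591 bases, was used.

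Among the 14 canonical ligands most values leaned upwards with CCCP, and Wnt6 had the smallest p-value. Wnt6 (chromosome 1, 74754342 to 74785322), a ligand of surface ectoderm and nephric duct, had 26.5 and 30.4 CPM in untreated replicates 1 and 2 and 43.4 and 58.6 CPM in CCCP replicates 1 and 2. Both CCCP libraries were above both untreated libraries, and CCCP replicate 2 was the highest. The ratio of group means was 1.79, and the log2 fold change was 0.84 (standard error 0.18, edgeR adjusted p 0.186). DESeq2 gave an adjusted p of 0.00764, and edgeR without the filter on low counts, which tested 32261 genes and called 0.673% of them higher and 2.76% lower, gave 9.85e-05. With any 1 library left out the log2 fold change stayed between 0.62 and 1.05, and it was 0.66 once the trend of each library on GC content was removed.

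Wnt10a (chromosome 1, 74792019 to 74804176), a ligand of developing skin and its appendages, lies 6.7 kb downstream of Wnt6 on the same strand with no gene wholly between them. It had 2.75 and 3.15 CPM in untreated and 3.97 and 8.40 CPM in CCCP libraries. The groups did not overlap, but CCCP replicate 2 stood well above the other 3 libraries. Its log2 fold change of 1.06 (standard error 0.401) had an edgeR adjusted p of 0.318 and a DESeq2 adjusted p of 0.186; without CCCP replicate 2 it was 0.44. Among ligands that sit side by side, the pairs Wnt10b and Wnt1 (11.7 kb apart) and Wnt3a and Wnt9a (16.1 kb apart) had log2 fold changes of 0.10 and 0.62, and of 0.40 and 0.14, respectively. Wnt9b and Wnt3 overlap by 174 exon bases on opposite strands, where reads without strand cannot be assigned; their values were 0.50 and 0.33.

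Wnt1 (chromosome 15, 98789857 to 98793830), a ligand of the dorsal neural tube, had 8.92 and 16.0 CPM in untreated and 16.0 and 22.2 CPM in CCCP libraries. Untreated replicate 2 and CCCP replicate 1 were level, so the groups met. The log2 fold change was 0.62 (standard error 0.32, edgeR adjusted p 0.419), and it was 0.26 with untreated replicate 1 left out and 1.13 with untreated replicate 2 left out. Wnt7b, a ligand of epithelia and neural tissue, had 28.0 and 36.0 CPM untreated and 36.3 and 37.7 CPM with CCCP. Its groups were separated by 1 narrow step, and its log2 fold change was 0.21 (standard error 0.16, edgeR adjusted p 0.56). It was 0.05 or 0.43 with untreated replicate 1 or 2 left out, and 0.04 with the GC trend removed. Wnt2b (chromosome 3, 104944805 to 104961709), a mesenchymal and mesothelial ligand, went the other way. It had 6.65 and 5.80 CPM untreated and 4.24 and 4.21 CPM with CCCP, a log2 fold change of -0.56 (standard error 0.24, edgeR adjusted p 0.353). Both CCCP libraries were below both untreated libraries. However, 40.7% of its exon bases are shared with St7l on the opposite strand, and reads that fit both genes were left out. The counts of Wnt2b thus come from only part of its exons, and its level is uncertain.

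The remaining canonical ligands were Wnt3, Wnt3a, Wnt7a, Wnt9b, Wnt9a, Wnt10b, Wnt2, Wnt8a and Wnt8b. In the first 4 of these, with log2 fold changes of 0.33, 0.40, 0.41 and 0.50, the lowest library was untreated replicate 1, and the other 3 libraries lay closer together. Wnt2 overlapped, at 0.16. Wnt7a, for example, had 7.47 and 13.7 CPM in untreated and 12.9 and 15.2 CPM in CCCP libraries. Wnt8a and Wnt8b, at most 0.668 CPM in any library, were too low for a fold change to be read.

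Over the list, 12 of the 14 canonical ligands had a log2 fold change above 0 (85.7%, against 49.2% of all genes), and the median was 0.36. In 4 of them (28.6%, against 24.0% of all genes) both CCCP libraries were above both untreated ones: Wnt6, Wnt7b, Wnt10a and Wnt8b, the last on few counts. In 1 of them (7.14%, against 24.8% of all genes), Wnt2b, they were below, and 9 overlapped. The median depended on which untreated library was used. It was 0.12 without untreated replicate 1, 0.90 without untreated replicate 2, 0.45 without CCCP replicate 1, 0.23 without CCCP replicate 2 and 0.24 with the GC trend removed. Untreated replicate 1 was the lowest of the 4 libraries in 12 of the 14 canonical ligands, against 31.7% of all genes, and CCCP replicate 2 was the highest in 9 of the 14, against 26.3% of all genes. Between the untreated libraries themselves, replicate 2 exceeded replicate 1 by a median of 0.52 on the log2 scale over these 14 genes, which is more than the median difference between the groups.

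**Figure D2:**
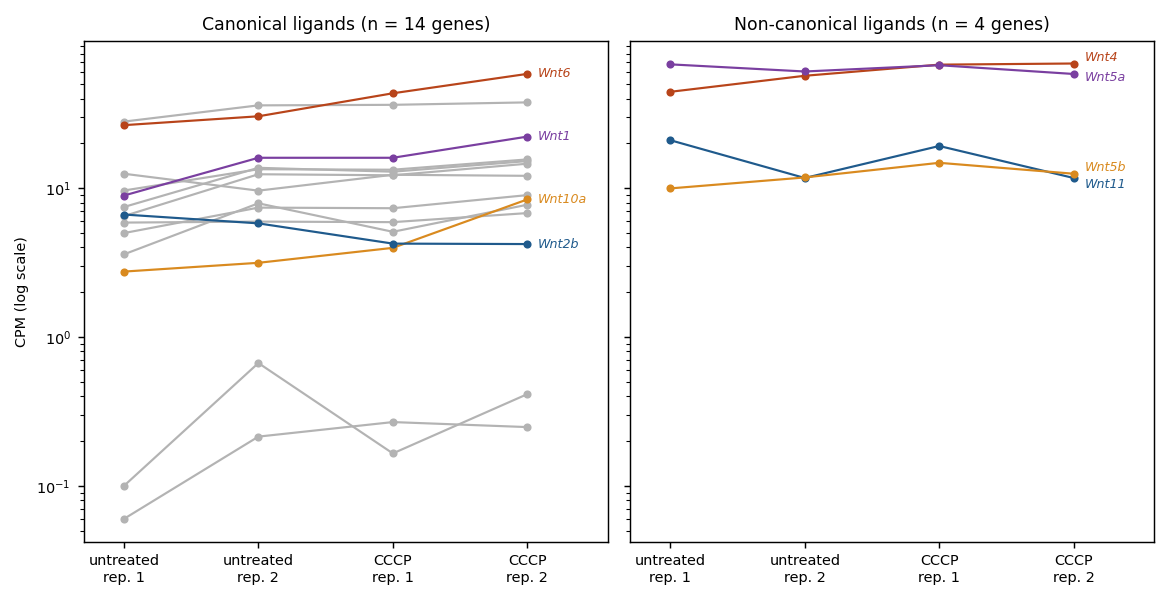
CPM of the canonical ligands (left) and non-canonical ligands (right) in each library, on a shared log axis; each line joins the 4 values of 1 gene and marks no order of the libraries, with 4 genes named in each panel and the rest in grey. Wnt6 goes from 26.5 CPM in untreated replicate 1 to 58.6 CPM in CCCP replicate 2, most other canonical ligands are lowest in untreated replicate 1, and Wnt11 is higher in replicate 1 of both groups.

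The 4 non-canonical ligands did not share a direction. Wnt4 (chromosome 4, 137277635 to 137299501), a ligand of the mesonephros and the gonad, had 44.4 and 56.9 CPM in untreated and 67.6 and 68.8 CPM in CCCP libraries. Both CCCP libraries were above both untreated ones and nearly equal to each other. The ratio of group means was 1.35, and the log2 fold change was 0.43 (standard error 0.149, edgeR adjusted p 0.296, DESeq2 adjusted p 0.239). Left-out libraries moved it between 0.27 and 0.65. Wnt5a (chromosome 14, 28504543 to 28527448), the main mesenchymal ligand of polarity signalling, had 67.9 and 60.8 CPM untreated and 67.0 and 58.5 CPM with CCCP. Its replicates differed more than its groups, at a log2 fold change of -0.04 (standard error 0.129, edgeR adjusted p 0.915), or 0.20 with the trend on exon length removed. Wnt5b, with 9.96, 11.8, 14.8 and 12.5 CPM, had higher CCCP libraries and a log2 fold change of 0.32 (edgeR adjusted p 0.491). Wnt11, a ligand of the ureteric tip and of movement of mesoderm, had 21.0 and 11.7 CPM untreated and 19.2 and 11.7 CPM with CCCP. Replicate 1 was the higher library in both groups, and the groups overlapped, with a log2 fold change of -0.08 (edgeR adjusted p 0.93). Wnt16, a ligand with canonical and non-canonical activity that acts in blood stem cell specification in zebrafish, had 2.36 and 11.3 CPM untreated and 6.32 and 8.07 CPM with CCCP. The untreated libraries spanned the CCCP libraries, and the log2 fold change was 0.08 (edgeR adjusted p 0.967), from -0.65 without untreated replicate 1 to 1.64 without untreated replicate 2. The median over the 4 non-canonical ligands was 0.14, 2 above 0 and 2 below, and 0.02 with the GC trend removed.

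Summed per kilobase of exon, canonical ligands made 39.3 and 51.1 CPM per kilobase in untreated and 56.4 and 71.6 CPM per kilobase in CCCP libraries. The groups did not overlap, but this rested on Wnt6: without it the sums were 27.6 and 37.7 against 37.3 and 45.8, which overlap. Non-canonical ligands summed to 29.3 and 29.6 against 36.3 and 32.6 CPM per kilobase. This separation rested on Wnt4, with 11.6 and 14.9 against 17.7 and 18 CPM per kilobase. Wnt5b had 3.39 and 4.03 against 5.02 and 4.24. Wnt5a had 7.97 and 7.14 against 7.87 and 6.87, and Wnt11 had 6.32 and 3.52 against 5.77 and 3.51. All 19 ligands together made 69.3 and 84.3 CPM per kilobase untreated and 94.8 and 107 CPM per kilobase with CCCP. Wnt6 made up 16.8% and 15.9% of that ligand level in untreated and 20.2% and 24.1% in CCCP libraries, while Wnt4 made up 16.7%, 17.6%, 18.6% and 16.8%.

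The promoters of Wnt6, Wnt4 and Wnt1, shown as examples of ligands with a positive log2 fold change, are given below from RefSeq (GRCm38.p6), 250 bases before to 50 bases after the annotated start, with GC boxes in capitals. They lie at chr1:74771642-74771941, chr4:137277385-137277684 and chr15:98789607-98789906, all on the plus strand; the Wnt6 window lies inside the span the files give for the gene.
Wnt6: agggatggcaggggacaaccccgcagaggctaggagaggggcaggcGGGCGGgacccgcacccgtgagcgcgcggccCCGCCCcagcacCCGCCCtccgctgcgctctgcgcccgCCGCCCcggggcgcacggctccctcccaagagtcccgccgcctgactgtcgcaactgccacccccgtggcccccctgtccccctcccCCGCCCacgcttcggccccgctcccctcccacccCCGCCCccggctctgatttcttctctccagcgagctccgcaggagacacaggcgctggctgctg
Wnt4: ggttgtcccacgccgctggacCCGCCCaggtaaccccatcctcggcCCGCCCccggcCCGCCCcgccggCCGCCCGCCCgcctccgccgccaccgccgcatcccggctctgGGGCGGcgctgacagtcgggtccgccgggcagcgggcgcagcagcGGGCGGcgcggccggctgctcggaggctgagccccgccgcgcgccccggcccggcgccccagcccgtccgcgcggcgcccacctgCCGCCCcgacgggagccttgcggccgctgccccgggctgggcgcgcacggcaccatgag
Wnt1: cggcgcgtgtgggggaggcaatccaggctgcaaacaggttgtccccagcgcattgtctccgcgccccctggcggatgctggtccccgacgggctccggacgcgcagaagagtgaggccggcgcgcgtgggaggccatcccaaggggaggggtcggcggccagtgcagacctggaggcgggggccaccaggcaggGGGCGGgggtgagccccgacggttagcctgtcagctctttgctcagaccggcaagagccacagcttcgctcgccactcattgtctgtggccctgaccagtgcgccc
The motifs searched on both strands were the GC box, GGGCGG, and a loose form of the TCF/LEF motif, CTTTGNT, where N is any base. Beta-catenin acts through TCF/LEF factors. Matches that overlap were counted apart. The Wnt6, Wnt4 and Wnt1 windows hold 6, 8 and 1 GC boxes. The Wnt1 window holds a match to the loose TCF/LEF form, CTTTGCT, at base 231 of the window. Of the 50 genes, 33 had a promoter in the table, 36 windows in all. A GC box was found in 28 of the 36 windows (77.8%), against 35.7% of 32851 windows of the same length over all genes. The loose TCF/LEF form was found in 7 of the 36 (19.4%), against 18.6%. The median GC content was 67.2%, against 52.7% over all windows. A match is a description, not a site or a cause. The transcripts themselves had a median GC content of 55.4% for the tested members and 57.4% for the canonical ligands, against 50.7% for all tested genes. Across all genes, log2 fold changes went with GC content (Spearman's rho 0.37, genes not being independent replicates), with medians of -0.38 in the lowest 10% and 0.17 in the highest 10% by GC content.

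Neither gene of ligand secretion had groups without overlap. Wls had 133 and 149 CPM in untreated and 148 and 164 CPM in CCCP libraries, and its log2 fold change of 0.14 (standard error 0.125) had an edgeR adjusted p of 0.612. It was 0.45 with the GC trend removed. Porcn had 14.9 and 10.3 CPM against 13.1 and 10.4 CPM, a log2 fold change of -0.10 (standard error 0.252, edgeR adjusted p 0.88). Replicate 2 was the higher library for Wls and the lower one for Porcn in both groups.

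Frizzled receptors split, with Fzd3 the member of the whole family with the smallest p-value. Fzd3 (chromosome 14, 65192441 to 65262463), a receptor of the neural tube and of polarity signalling in axons, had 204 and 209 CPM in untreated and 120 and 140 CPM in CCCP libraries. Both CCCP libraries were far below both untreated ones, and the replicates of each group lay close together. The untreated level was 1.59 times the CCCP level, a log2 fold change of -0.67 (standard error 0.126). The edgeR adjusted p was 0.166 and the DESeq2 adjusted p 0.00378, and with 1 library left out the log2 fold change stayed between -0.77 and -0.56. At 12742 bases its exons were the longest of the family. Log2 fold changes fell with exon length across all genes (Spearman's rho -0.36, with medians of 0.22 in the shortest 10% and -0.36 in the longest 10%). With each library's trend on length removed Fzd3 stood at -0.33, and with the trend on GC content removed at -0.43.

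Fzd2 (chromosome 11, 102604431 to 102608058), the receptor with the highest level per kilobase, had 181 and 169 CPM untreated and 216 and 219 CPM with CCCP. Both CCCP libraries were above both untreated ones. The ratio was 1.24, the log2 fold change 0.31 (standard error 0.113) and the edgeR adjusted p 0.31, with 0.29 to 0.37 when a library was left out and 0.17 with the GC trend removed. Fzd4, the receptor for Norrin on endothelium, had 22.3 and 26.0 CPM against 17.4 and 21.8 CPM, a log2 fold change of -0.30 (edgeR adjusted p 0.476), with 9.17% of its exon bases shared with Tmem135 on the opposite strand. Its groups were separated by a narrow margin. Fzd7 had 142 and 171 CPM against 158 and 164 CPM and a log2 fold change of 0.04 (edgeR adjusted p 0.899), and the untreated libraries spanned the CCCP libraries. Fzd1, Fzd9 and Fzd10 had higher CCCP libraries without overlap, with log2 fold changes of 0.12, 0.48 and 0.33. That of Fzd9 was 0.05 without CCCP replicate 1, and that of Fzd10 was 0.10 without untreated replicate 1. Fzd5, Fzd6 and Fzd8 overlapped, at 0.06, 0.10 and 0.16. In all, 8 of 10 Frizzled genes had a value above 0 (49.2% of all genes), with a median of 0.11. Of these 10 genes, 4 were without overlap upwards and 2 downwards, where 24.0% and 24.8% of all genes were. Their summed level was 167 and 179 CPM per kilobase untreated and 187 and 193 with CCCP.

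The canonical co-receptors differed in sign. Lrp6 (chromosome 6, 134446476 to 134566913) had 210 and 184 CPM in untreated and 134 and 162 CPM in CCCP libraries. Both CCCP libraries were lower, at a log2 fold change of -0.41 (standard error 0.145, edgeR adjusted p 0.301, DESeq2 adjusted p 0.237). It was -0.27 without CCCP replicate 1 and -0.55 without CCCP replicate 2. Like Fzd3 it is a long transcript, with 9368 exon bases, and its value was -0.14 with the length trend removed. Lrp5 (chromosome 19, 3584825 to 3686585), with 5193 exon bases, had 114 and 109 CPM against 121 and 127 CPM. Its CCCP libraries were slightly above the untreated ones, at a log2 fold change of 0.15 (standard error 0.111, edgeR adjusted p 0.542). With the GC trend removed Lrp5 stood at 0.00 and Lrp6 at -0.27. Of the non-canonical receptors, Ryk had 94.1 and 105 CPM against 115 and 111 CPM (log2 fold change 0.19, edgeR adjusted p 0.49) and Ror2 76.8 and 91.3 CPM against 95.1 and 93.7 CPM (0.17, edgeR adjusted p 0.563), both without overlap. Ror1 overlapped, with 64.7 and 52.5 CPM against 56.7 and 57.5 CPM and a log2 fold change of -0.04 (edgeR adjusted p 0.92).

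**Figure D3:**
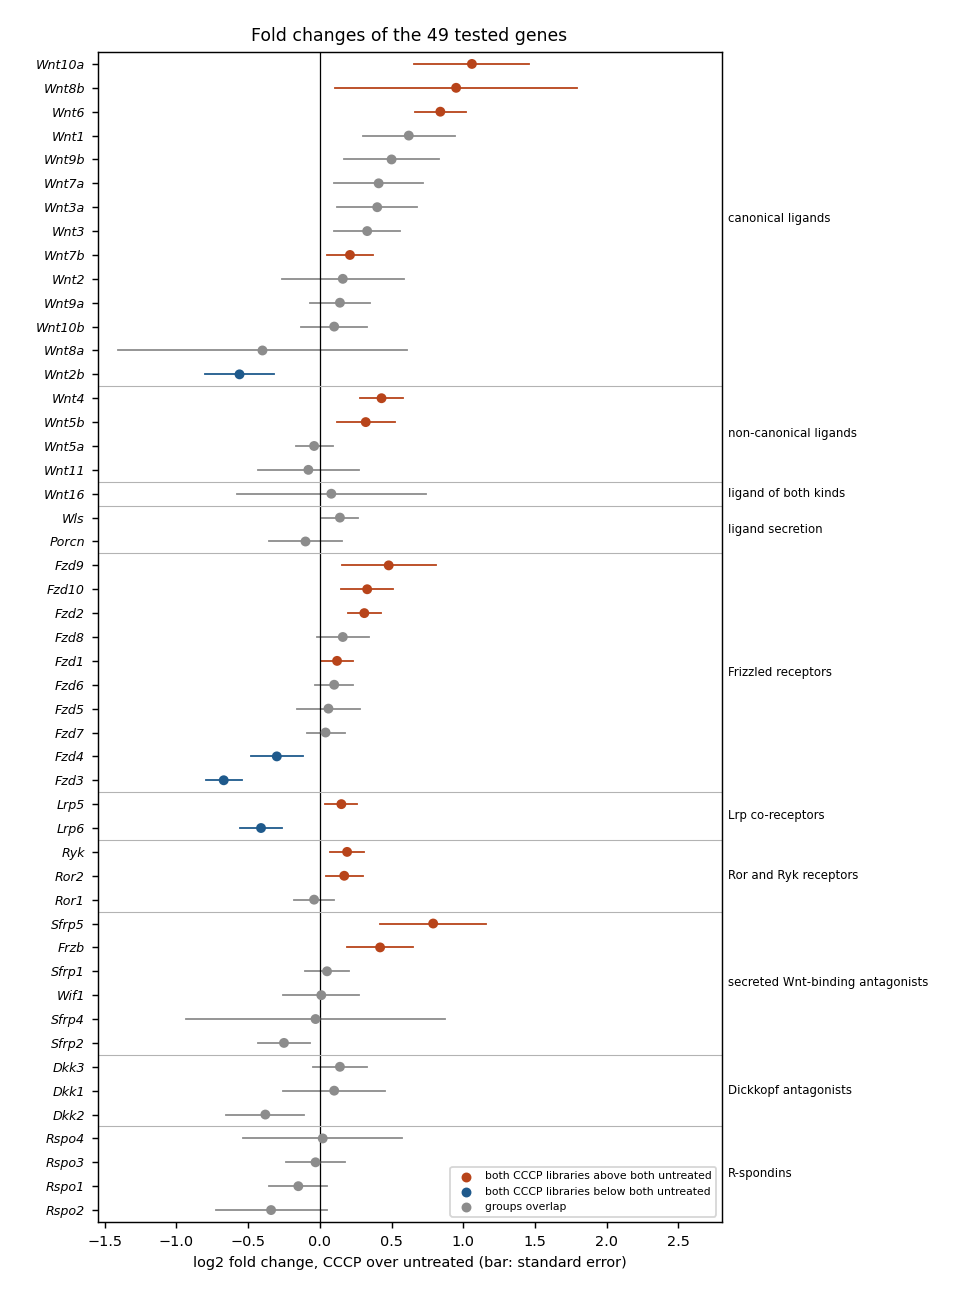
Log2 fold change (CCCP over untreated) of the 49 tested genes with its standard error, grouped by role; red marks genes whose CCCP libraries both exceed both untreated libraries, blue the reverse and grey overlap. Wnt6 at 0.84 and Fzd3 at -0.67 lie several standard errors from 0, while the R-spondins and the tested Dickkopf genes are grey.

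Among antagonists that bind the ligand, Sfrp1 had the highest level per kilobase. Sfrp1 had 197 and 167 CPM in untreated and 206 and 169 CPM in CCCP libraries. Replicate 1 was the higher library in both groups and the groups overlapped, at a log2 fold change of 0.05 (standard error 0.153, edgeR adjusted p 0.91). Sfrp2 had 64.2 and 87.6 CPM against 69.3 and 58.0 CPM, a log2 fold change of -0.25 (edgeR adjusted p 0.539) that was 0.02 without untreated replicate 2. Frzb (chromosome 2, 80411970 to 80447396), the Frizzled-related protein first known from cartilage, had 23.1 and 37.0 CPM against 41.0 and 39.5 CPM. Its CCCP libraries were both higher, but most of the difference was in untreated replicate 1, and the log2 fold change of 0.42 (standard error 0.228, edgeR adjusted p 0.43) was 0.13 without it. Sfrp5 had 1.80 and 1.31 CPM against 2.24 and 3.14 CPM, without overlap (0.79, edgeR adjusted p 0.382). Wif1 overlapped at 7.88 to 12.1 CPM, and Sfrp4 was at most 0.535 CPM. The median over the 6 genes was 0.03.

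The groups overlapped in every tested Dickkopf gene (3 genes) and R-spondin (4 genes). Of all genes, 24.0% were without overlap upwards and 24.8% downwards. Dkk2 had 35.4 and 22.2 CPM in untreated and 25.9 and 18.4 CPM in CCCP libraries. Replicate 1 was the higher library in both groups, and the log2 fold change of -0.38 (standard error 0.273, edgeR adjusted p 0.538) was 0.01 without untreated replicate 1. Dkk3 had 13.8, 11.8, 15 and 13.3 CPM, and Dkk1, a feedback inhibitor induced by beta-catenin, had 2.67, 4.70, 4.34 and 3.53 CPM. Their log2 fold changes were 0.14 and 0.10, with edgeR adjusted p-values of 0.741 and 0.918. Among R-spondins, Rspo1, which acts in the gonad, had 22.1 and 16.3 CPM against 16.6 and 18.1 CPM (log2 fold change -0.15, edgeR adjusted p 0.752). Rspo3, which acts in blood vessels, had 11.9 and 15.6 CPM against 13.8 and 13.1 CPM (-0.03, edgeR adjusted p 0.955). Rspo2 had 3.77, 7.62, 3.91 and 5.07 CPM (-0.34, edgeR adjusted p 0.698), and Rspo4 1.21 to 3.88 CPM. The untreated libraries differed by more than the groups in each of Rspo1, Rspo2 and Rspo3, and the median over the 4 R-spondins was -0.09. Dickkopf genes summed to 14.5 and 11.4 CPM per kilobase untreated and 13 and 10.1 with CCCP, and R-spondins to 18.7 and 18 against 16 and 17.8.

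Other genes of the pathway gave no call in edgeR either. Of 18 other regulators at the cell surface 0 passed, with a median log2 fold change of 0.17. The smallest p-values were those of Lgr5, an R-spondin receptor (-0.78, edgeR adjusted p 0.342), and Ptk7, a polarity co-receptor (0.28, edgeR adjusted p 0.362). The R-spondin receptors Lgr4, with 84.6 and 85 CPM against 82.3 and 78.3 CPM, and Lgr6 stood at -0.08 and 0.20. Of 21 transducers in the cytoplasm and nucleus 0 passed, with a median of 0.05. Apc, the scaffold of beta-catenin destruction, had 319 and 246 CPM against 148 and 167 CPM, a log2 fold change of -0.84 with an adjusted p of 0.167 in edgeR and 0.00122 in DESeq2. Pygo2, a nuclear partner of beta-catenin, stood at 0.44 (edgeR adjusted p 0.242), and Ctnnb1, beta-catenin itself, at 0.13 (edgeR adjusted p 0.681). Of 12 core polarity genes 0 passed, with a median of -0.15. These genes are long, with a median of 9204 exon bases, and their median log2 fold change was 0.10 with the length trend removed. Daam1 stood at -0.44 (edgeR adjusted p 0.278) and Mapk8 at -0.26 (edgeR adjusted p 0.344). Of 22 canonical target genes 0 passed, with a median of 0.08 and Axin2 at 0.13 (edgeR adjusted p 0.646). Twist1 and Nkd1 had the smallest p-values, at 0.42 and 0.44, and Dkk1 belongs to both sets. CCCP libraries were higher without overlap in 4 targets (18.2%, against 24.0% of all genes). They were lower in 2 (9.09%, against 24.8% of all genes), Lgr5 at -0.78 and Znrf3 at -0.32.

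Marker lists of tissues that can make Wnt ligands differed in their medians. Of all genes, 49.2% had a log2 fold change above 0. The 6 dorsal neural tube and roof plate markers, the site of Wnt1 and Wnt3a, had a median log2 fold change of 0.39 with 6 of 6 above 0. That median was 0.13 or 0.71 with untreated replicate 1 or 2 left out, and 0.69 or 0.05 with CCCP replicate 1 or 2 left out. The groups overlapped in 5 of these 6 markers, and 1 (16.7%, against 24.0% of all genes) was higher with CCCP without overlap. Their summed level was 294 and 303 CPM untreated and 316 and 322 CPM with CCCP. Zic1 alone made up most of this sum, with 246 and 225 CPM untreated and 248 and 228 CPM with CCCP. Its log2 fold change was 0.01, so the sum says little of the other markers. None of the 6 markers was at 0, and Atoh1, the most variable, had 5.43, 15, 9.49 and 27.6 CPM. The 7 surface epithelium markers, which include the general epithelial genes Krt8, Krt18, Epcam and Cdh1, had a median of 0.30 with 7 of 7 above 0. That median lay between 0.07 and 0.59 with 1 library left out. These 7 markers summed to 321 and 361 CPM untreated and to 378 and 487 CPM with CCCP, and none was at 0. The groups overlapped in 6 of these 7 markers, and 1 (14.3%, against 24.0% of all genes) was higher with CCCP without overlap. Of the 10 mesonephros and nephric duct markers 5 were above 0, with a median of 0.06 that lay between -0.05 and 0.37 with 1 library left out, and sums of 281 and 201 against 270 and 199 CPM. Neural and neural crest markers had a median of -0.08 (5 of 10 above 0) and mesenchyme markers of -0.11 (3 of 12 above 0). With 1 library left out these 2 medians lay between -0.20 and 0.21 and between -0.43 and 0.24. The part of these tissues in the ligand values was not tested.

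**Figure D4:**
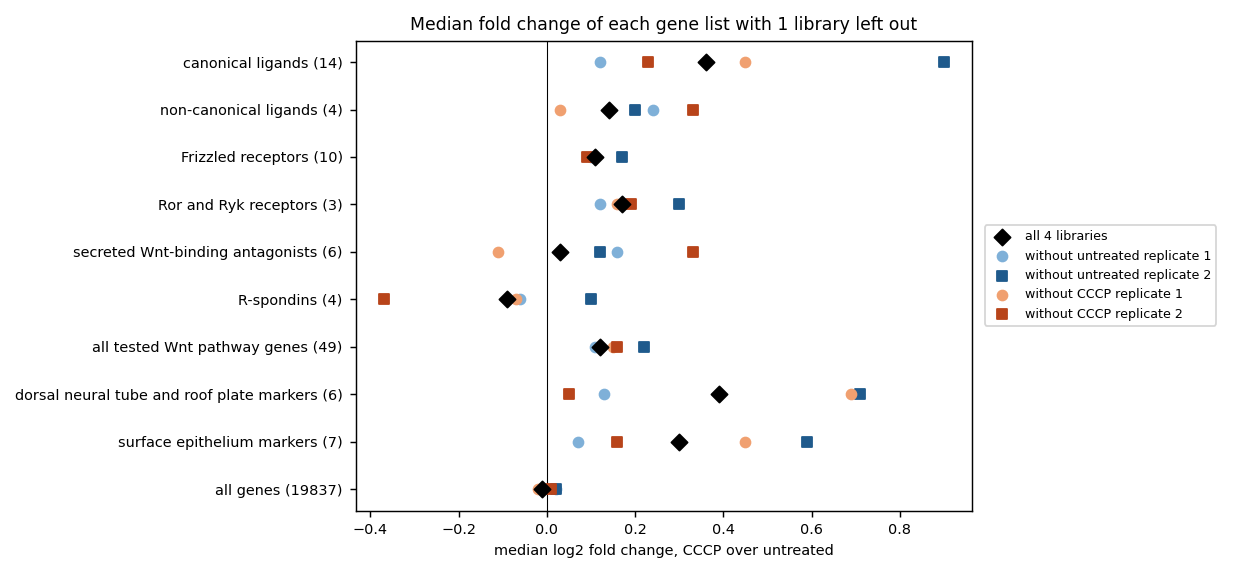
Median log2 fold change (CCCP over untreated) of selected lists with all 4 libraries (diamonds) and with 1 library left out (coloured points). The number of tested genes is in parentheses. Of the marker lists only roof plate and surface epithelium are shown, and the Lrp, Dickkopf and ligand secretion lists are not shown. The canonical ligands span 0.12 to 0.90 and the roof plate and surface epithelium markers span 0.05 to 0.71 and 0.07 to 0.59, whereas the median of all genes stays within 0.02 of 0.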

How the data were processed

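Poly(A) RNA from 2 untreated and 2 CCCP-treated AGM explant libraries was sequenced. The authors deposited raw counts of reads per gene for each library and, beside them, the exon length of each gene. Per the file headers, these counts were made with featureCounts 2.0.3 on exons of the mm10 NCBI RefSeq annotation, with no strand option and with each read of a pair counted singly, and reads that map to several places or genes were left out. The submitters' processing notes name FastQC, HISAT2, SAMtools and Subread, with no versions. Without strand, reads in exon bases shared by genes on opposite strands cannot be told apart, and such reads were left out. Of the 50 members, 13 share exon bases with another gene, so their levels per kilobase are to that extent too low. The header of untreated replicate 1 differs by a letter from its title, and its sample was taken from the deposit's record. Libraries held 37360968 to 48827826 counts. Floors cover counting error only.

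Groups were compared in R 4.3.3 with the quasi-likelihood test of edgeR 4.0.16 (glmQLFit, glmQLFTest) under TMM scaling, after filterByExpr (minimum count 10, minimum total 15), with no covariate, two-sided, with Benjamini-Hochberg adjustment over all 19837 genes and a threshold of 0.05. The biological coefficient of variation was 21.9%. Standard errors were the log2 fold change divided by the root of the quasi-likelihood F. Alternatives were DESeq2 1.42.0, RLE factors, no scaling, no filter, leaving out each library, the replicate number as a block, and trends on exon length or (chosen after seeing the data) GC content removed by offsets. GC content came from GENCODE transcripts and was known for 90.4% of genes tested and all members.

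The members, lists and tests were chosen with earlier results of these data known. Members named in full were, per role, up to 3 with the highest mean CPM of at least 1, and up to 4 per direction with the smallest p among those without overlap; of other pathway lists, the 2 smallest p-values. Ctnnb1, Axin2, Wnt3, Wnt3a, Wnt7a and other members in the text outside this rule were named after their values were seen, to account for every member.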

Additional observations from a re-analysis of the deposited data

How the results depend on the processing

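Of 49 members, 0 were called under RLE factors, without scaling, with the length trend or the GC trend alone removed, and in each of the 4 fits that left out a library, while 2 were called by DESeq2 (Wnt6 and Fzd3) and 3 without the filter (Wnt6, Wnt10a and Fzd3). Over all genes the count was 0 in edgeR, 594 in DESeq2, 1107 without the filter and 10 to 46 when a library was left out. The median of the members was 0.12, or 0.06 without scaling (all genes then stood at -0.07), 0.16 with the length trend removed, 0.06 with the GC trend removed, and 0.11 to 0.22 when a library was left out. With the replicate number as a block 5 members were called (Wnt1, Wnt4, Wnt6, Wnt10a and Fzd3) of 2118 genes (10.7% of all tested). Adding removal of the length trend to the block gave 4 members of 1561 genes (7.87% of all tested) and a median of 0.17, and Wnt10a was lost. Adding removal of the GC trend gave 3 members of 1148 genes (5.79% of all tested) and a median of 0.08. These were Wnt6, Fzd3 and Wls, the last not among the 5. Same-numbered libraries deviated together (correlation 0.36), and 11 of 14 canonical ligands were higher in replicate 2 of both groups, but the labels do not say what these numbers stand for, and with 2 pairs they were not taken as a pairing. The sign changed without scaling for Fzd7 and Sfrp1 (both -0.01), with the length trend removed for Ror1 (0.28) and Wnt5a (0.20), which had the same values with the block added, and with the GC trend removed for Fzd7 (-0.07, or -0.06 with the block), Ror1 (0.04, or 0.05) and Rspo3 (0.13, or 0.15). Leaving out 1 library also turned the sign of Dkk1 (-0.24 to 0.59), Dkk2 (-0.64 to 0.01), Fzd7 (-0.07 to 0.22), Porcn (-0.31 to 0.21), Ror1 (-0.15 to 0.13), Rspo1 (-0.32 to 0.10), Rspo2 (-0.76 to 0.28), Rspo3 (-0.20 to 0.21), Sfrp1 (-0.10 to 0.19), Sfrp2 (-0.45 to 0.02), Wnt11 (-0.48 to 0.41), Wnt16 (-0.65 to 1.64) and Wnt5a (-0.13 to 0.07). The other members named by the rule kept their sign under these alternatives. The cause of these shifts was not tested. In the fits with a library left out, the lone library of its group is assumed to vary like the other group. Members under 1 CPM rest on few counts, which limits them.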
